A study of Homo sapiens with 8 samples.

Results

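Replication-dependent histone mRNAs encode the H1, H2A, H2B, H3 and H4 proteins that package newly copied DNA. They were chosen as the rows of the deposited transcript table whose RefSeq identifier maps to a gene with a current or older symbol starting with HIST1H, HIST2H, HIST3H or HIST4H, which gave 75 rows of 53216, from 73 gene symbols. Of these, 6 were H1 rows, 18 H2A, 22 H2B, 14 H3 and 15 H4. The HIST1 cluster on chromosome 6 held 57 rows, and the other 18 came from the HIST2 and HIST3 clusters on chromosome 1 and the HIST4 gene on chromosome 12. The rule also takes in H1-6, H2AC1, H2BC1 and H3-4, genes known for expression in the testis, and the noncoding rows H2AC2P, H2BC20P and H2BP1.

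All 8 libraries came from HEK293T, a human embryonic kidney cell line that carries the SV40 large T antigen, grown without treatment. In the first group, 2 libraries were made from RNA of wild-type (WT) cells after removal of ribosomal RNA with the RiboMinus kit. A second group of 3 libraries held WT RNA after NAD-Capture, in which the enzyme ADPRC exchanges the nicotinamide of an NAD+ cap for an alkyne alcohol, a biotin is clicked on and the RNA is bound to streptavidin beads. The third group of 3 libraries held NAD-Capture RNA from cells labelled DXO-KO, a knockout of DXO, the enzyme known to remove NAD+ caps from RNA. No label says how many clones the knockout cells came from or whether the replicates were separate cultures, so the p-values measure only the spread between these libraries, which may be technical. RiboMinus RNA went into TruSeq libraries and captured RNA into SMARTer low-input libraries, so capture and library kit cannot be told apart in any comparison with RiboMinus RNA. The reactions without ADPRC that the protocol mentions were not analysed here.

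Histone mRNAs of this kind are made in S phase, when DNA is replicated, and have no introns. Most end in a short stem-loop in place of a poly(A) tail. The stem-loop binding protein SLBP and the U7 snRNP direct the cut that forms this end, and SLBP stays on the mRNA for export, translation and decay. An NAD+ cap can be put on an RNA when NAD+ takes the place of ATP as the first nucleotide, so the base at which a transcript starts bears on what NAD-Capture can bind.

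The stem-loops of the most abundant histone row in each class with a match are shown because they mark the mRNA's usual end. They were read from GENCODE release 29 transcripts as GGC, any base, CTT, any base, T, any base, AG, any base and GCC on the transcript's own strand, with 5 bases on each side and the match in capitals.
H2AC11: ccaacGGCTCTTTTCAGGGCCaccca
H2BC5: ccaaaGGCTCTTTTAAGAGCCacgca
H3C10: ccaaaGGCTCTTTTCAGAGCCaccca
H4C2: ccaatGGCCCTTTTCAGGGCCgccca
The pattern was found for 33 of the 75 rows, among them 7 of 18 H2A, 12 of 22 H2B, 6 of 14 H3, 8 of 15 H4 and 0 of 6 H1 rows. Of all 206694 GENCODE transcripts, 69 held it, or 0.0334%. For 36 of the rows the GENCODE transcript starts at ATG and has a length divisible by 3, and 2 of those 36 held the pattern, so a missing match says only that these letters are not in the annotated sequence.

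The annotated starts are shown for one abundant row of each class, because the first transcribed base, in capitals, is where an NAD+ cap would sit. Each window runs from 45 bases before the start to the first 15 bases of the transcript, from the RefSeq table of the GRCh38.p14 build, with the letters TATAAA also in capitals where present.
H1-2, chr6:26056456-26056515, minus strand: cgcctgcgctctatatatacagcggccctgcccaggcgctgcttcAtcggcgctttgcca
H2AC20, chr1:149886873-149886932, plus strand: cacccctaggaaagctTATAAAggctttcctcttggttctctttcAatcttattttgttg
H2BC5, chr6:26158076-26158135, plus strand: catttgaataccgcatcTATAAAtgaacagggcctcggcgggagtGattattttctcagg
H3C2, chr6:26032085-26032144, minus strand: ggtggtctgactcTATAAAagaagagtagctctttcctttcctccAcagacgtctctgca
H4C2, chr6:26027269-26027328, minus strand: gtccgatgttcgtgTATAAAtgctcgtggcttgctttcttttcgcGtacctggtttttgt
Of the 65 histone genes in that table, 34 (52.3%) had A as the annotated first base, 23 had G, 7 had C and 1 had T. Over all 35116 genes in the table the share with A was 44.4%. TATAAA lay 40 to 16 bases before the start in 35 histone genes (53.8%) and in 2.30% of all genes. The letters CCAAT, on either strand and anywhere in the 250 bases before to 50 bases after the start, were in 55 histone genes (84.6%) and in 32.0% of all. These matches describe the letters and are not measured binding sites.

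Values in the deposited table are FPKM, fragments scaled to transcript length and to the number of mapped fragments. Depth, estimated from the steps between low values, came to about 10720500 and 8754469.5 fragments' worth in the WT RiboMinus libraries and between 80729 and 807887 in the NAD-Capture libraries. One fragment on a 500-base RNA was worth about 0.311 and 0.381 FPKM in the RiboMinus libraries, 13.4 to 20.1 FPKM in the WT NAD-Capture libraries and 4.13 to 41.3 FPKM in the DXO-KO-labelled libraries. In these estimates 71.4% to 73.5% of low values lay within 4% of a whole number of fragments, so the fragment numbers given here are approximate. The 5 HEK293T marker genes LIN28B, NEFL, NEFM, PAX2 and VIM were detected in both RiboMinus libraries, PAX2 at no more than 0.083 and 0.204 FPKM. Of the markers of other cell types, PTPRC and HBB, of white and red blood cells, were at 0 in all 8 libraries, ALB and CD3E reached 0.229 and 0.93 FPKM, and no row of INS or COL1A1 was above 24.9 or 9.28 FPKM. DXO itself stood at 11.2 and 14.3 FPKM in WT RiboMinus RNA, 33.2, 17.2 and 27.1 FPKM in WT NAD-Capture RNA and 128, 61.6 and 71.7 FPKM in the DXO-KO-labelled libraries. The targeted gene's RNA was therefore higher in all 3 DXO-KO-labelled libraries than in all 3 WT NAD-Capture libraries (log2 difference 1.69, two-sided exact permutation test p = 0.1, the smallest p that 3 against 3 allows). This level does not show whether DXO protein was lost.

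In WT RiboMinus RNA a limited set of histone genes carried the signal. Of the 75 rows, 41 were at 60 FPKM or more in both libraries, 32 were under 10 FPKM in both and 26 were under 1 FPKM in both. The rows at 60 FPKM or more were 3 of the 6 H1 rows, 13 of 18 H2A, 12 of 22 H2B, 6 of 14 H3 and 7 of 15 H4 rows. Across all 8 libraries, 34 rows stayed at 100 FPKM or more, and 9 were at 0 in every library: H2AC1, H2AC14, H2BC1, H2BC10, the second H2BC18 row (NM_001161334), H3C11, H4C6, H4C7 and H4C14. The testis genes H2AC1 and H2BC1 are among these, and H1-6 stood at 6.32 and 4.73 FPKM in RiboMinus RNA.

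**Figure D1:**
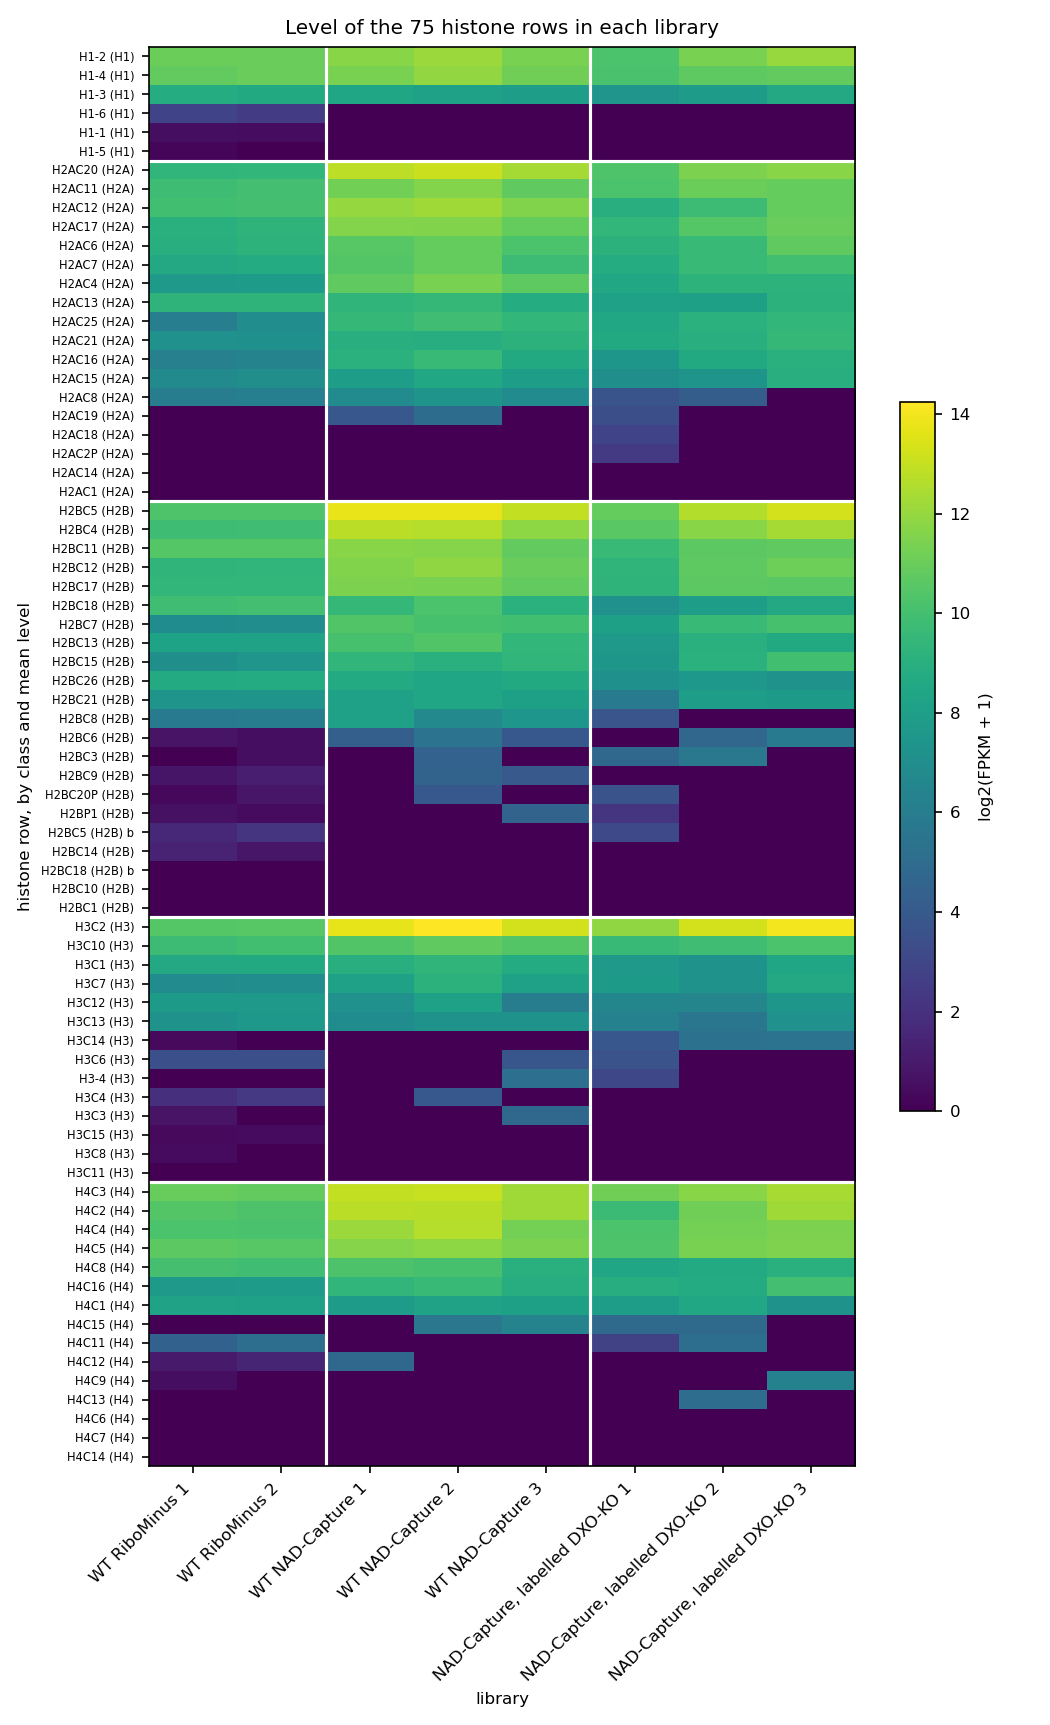
Colour gives log2(FPKM + 1) for each of the 75 histone rows (vertical axis, by class and by mean level; b marks a gene's second row) in each of the 8 libraries (horizontal axis). The same 34 rows are at 100 FPKM or more in every library, and 9 rows are at 0 in every library.

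Histone genes resemble each other, and reads from a stretch that 2 genes share cannot be placed with certainty. Of the 75 rows, 36 shared no 50-base stretch with another histone gene and 9 shared at least 50% of theirs. Those 9 included H3C14 and H3C15, which shared 100% of their stretches with each other and stood at 0.281 and 0 and 0.281 and 0.333 FPKM in RiboMinus RNA, and H4C11, which shared 81.2% and stood at 20.7 and 35.1 FPKM. The H2A row H2AC13 shared 62.3% and still stood at 620.4 and 619 FPKM. Values of such rows are uncertain because the counting may split reads between copies.

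**Figure D2:**
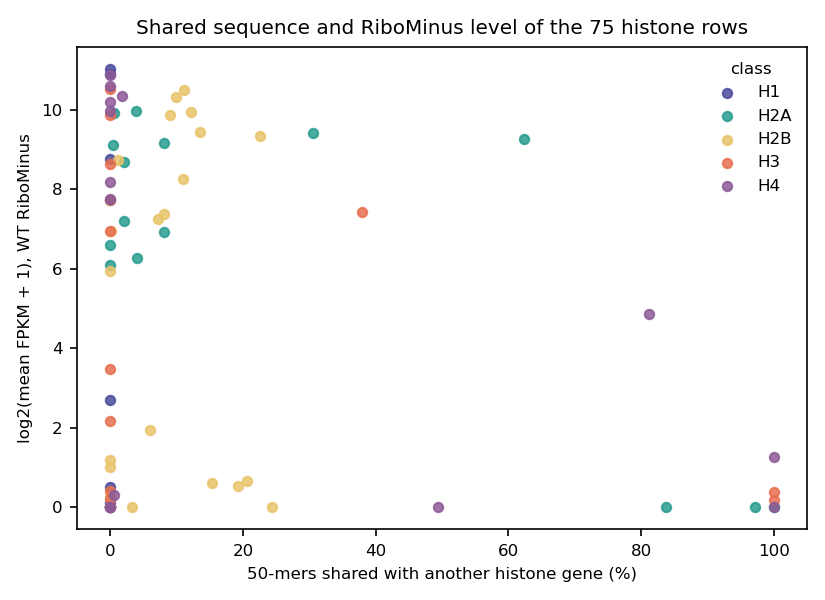
Each point is 1 of the 75 histone rows: the horizontal axis is the percentage of its 50-base stretches shared with another histone gene, the vertical axis log2(mean FPKM + 1) in the 2 WT RiboMinus libraries, coloured by class. Rows near 0 FPKM occur both among the 36 rows that share nothing and among the 9 that share at least 50%.

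Many core histone mRNAs were higher in WT NAD-Capture RNA than in WT RiboMinus RNA. By group means H2AC20 was 10.4-fold, H3C2 9.65-fold, H2AC4 9.61-fold and H2BC5 9.44-fold higher, whereas the linker histone genes H1-2 and H1-4 were 1.68-fold and 1.57-fold higher and did not pass the test. The test was limma on log2(FPKM + 1) over all transcripts with a mean of at least 1 FPKM, with Benjamini-Hochberg adjusted p under 0.05 as the threshold. Of 24777 transcripts tested, 25.7% passed, 12.6% higher and 13.1% lower. Of 75 histone rows 56 were tested, and of those 29 passed, 26 higher and 3 lower. Leaving out WT RiboMinus replicate 1 or 2 leaves 1 RiboMinus library. Fewer histone rows passed then, in a share close to that of all transcripts. The histone medians were 1.42 and 1.51, against 0.36 and 0.38 over all transcripts. A fit of all 8 libraries called 13 histone rows, beside 3962 of all 24777 transcripts. Each time a RiboMinus library was left out H2BC7 still passed, and H2AC20, H2BC5 and H3C2 did not. With quantile normalization 33 histone rows passed, but 16 were higher and 17 lower, beside 2603 higher and 3311 lower of all transcripts. The direction of many single histone rows thus rests on how the libraries are scaled. The 2 groups did not overlap, with NAD-Capture higher, for 34 of the 56 tested rows (21.3% over all transcripts tested) and, with NAD-Capture lower, for 4 rows (26.5%). The median log2 difference of the 56 tested rows was 1.35, against 0.24 over all 24777 transcripts. Both groups came from WT cells and differ in capture and library kit, which cannot be told apart. For any level given here, more of an RNA per cell and more cells that hold it cannot be told apart in bulk RNA either.

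Short RNAs as a whole differed in the same direction between these libraries. By the length of the GENCODE transcript, 17 of the 56 tested histone rows were up to 400 bases and 20 over 400 and up to 600 bases. Their medians were 1.77 and 1.54 on the log2 scale. GENCODE lengths can be too short or too long for histone rows. The bin up to 400 bases includes H2AC20, H2AC4 and H2AC17, for which the fragment estimates used 494, 527 and 487 bases. Histone rows and other transcripts in a bin are therefore not matched on true length. Other tested transcripts of these lengths had medians of 1.38 over 277 and 1.15 over 515, and in the longer of these bins 10.5% passed higher and 5.05% lower. Among other transcripts of over 2000 bases the median was -0.07 over 14776. The 4 histone rows in that bin had a median of 1.06. However, the bin includes H2AC11, H2BC9 and H2BC26, for which the fragment estimates used 493, 462 and 456 bases. The part of length in the histone differences was not tested. Of the 26 higher calls, 24 had at least 10 estimated fragments in every library, and H2AC8 and H2BC6 had fewer.

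**Figure D3:**
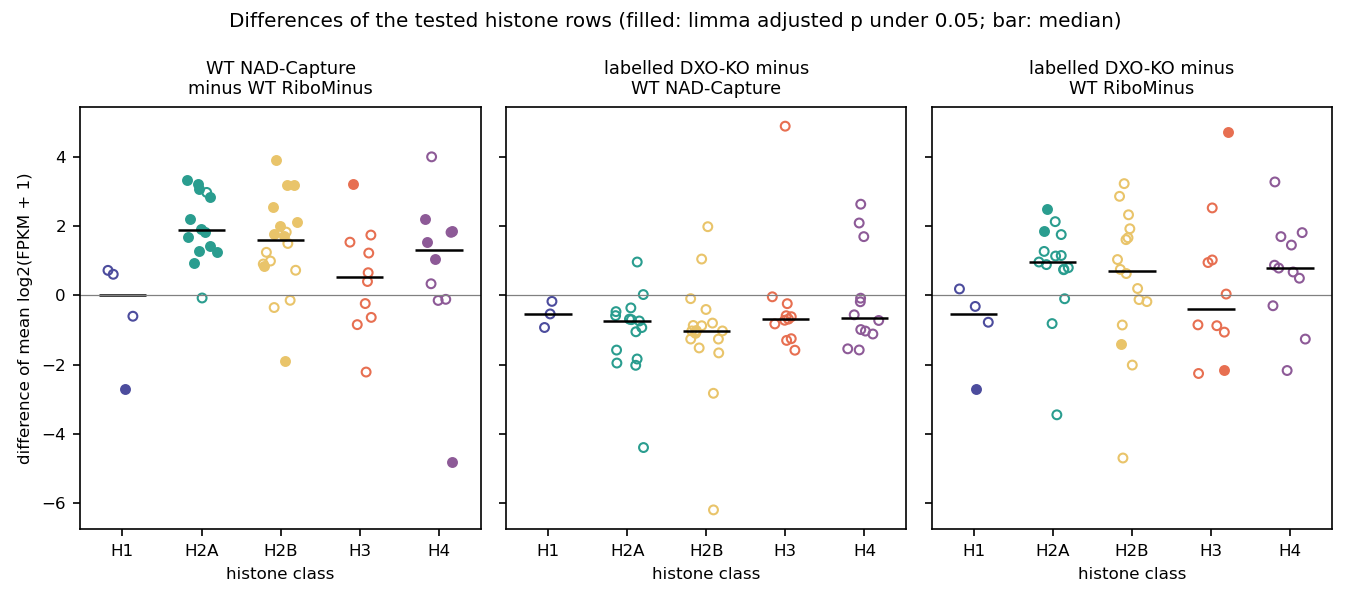
Each point is a tested histone row: the vertical axis is the difference of mean log2(FPKM + 1) between the 2 groups named above each panel, the horizontal axis the class, filled points have an adjusted p under 0.05 and bars are class medians. In the left panel the H2A median is 1.88. The H1 median there is 0.00 and takes in H1-6, a row at 0 FPKM in all 6 NAD-Capture libraries. In the middle panel no point is filled, and the right panel has 6 filled points.

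Among H2A genes, which with H2B form the outer dimers of the nucleosome, 12 of 14 tested rows passed higher and none lower, with a median log2 difference of 1.88. H2AC20 stood at 654 and 704 FPKM in the WT RiboMinus libraries, 7216, 8800.2 and 5124 in the WT NAD-Capture libraries and 1297, 2781 and 3359 in the DXO-KO-labelled libraries. All 3 WT NAD-Capture libraries were above both RiboMinus libraries, a log2 difference of 3.34 ± 0.26 (SE; adjusted p = 0.00326). H2AC4 stood at 203 and 221 FPKM in the WT RiboMinus libraries, 1733, 2669.8 and 1701 in the WT NAD-Capture libraries and 374, 597 and 599 in the DXO-KO-labelled libraries, and its WT groups did not overlap either (log2 difference 3.23 ± 0.25, adjusted p = 0.00323). H2AC11 stood at 919 and 1009 FPKM in the WT RiboMinus libraries, 2376, 3074 and 1717 in the WT NAD-Capture libraries and 1192, 2102 and 1882 in the DXO-KO-labelled libraries, and H2AC12 at 976 and 1039.9 FPKM in the WT RiboMinus libraries, 4016, 4686 and 2973 in the WT NAD-Capture libraries and 499.6, 874 and 1908 in the DXO-KO-labelled libraries. Both passed higher, at 1.27 and 1.92 on the log2 scale, but under quantile normalization the same differences were -0.66 and -0.15. H2AC13 was one of the 2 tested H2A rows that did not pass, at 620.4 and 619 FPKM in RiboMinus and 631, 708 and 455 FPKM in WT NAD-Capture RNA, with overlapping groups. The other, H2AC19, was at 0 in both RiboMinus libraries and in 1 WT NAD-Capture library.

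Of 18 tested H2B rows 9 passed higher and 1 lower, with a median log2 difference of 1.61. The major row of H2BC5 (NM_021063) stood at 1288 and 1269 FPKM in the WT RiboMinus libraries, 14274, 14013 and 7925 in the WT NAD-Capture libraries and 1895, 6160.2 and 9825 in the DXO-KO-labelled libraries. This row was the most abundant H2B row, and its WT groups were apart by 3.19 ± 0.31 on the log2 scale (adjusted p = 0.0052). The second H2BC5 row (NM_138720), a longer transcript of the gene, was at 2.11 and 3.52 FPKM in RiboMinus RNA, 0 in all 3 WT NAD-Capture libraries and 7.87, 0 and 0 in the DXO-KO-labelled libraries. It passed as lower in WT NAD-Capture RNA (fitted log2 difference -1.91, adjusted p = 0.0196), but a count of 0 in those libraries allows up to 20.4 to 30.8 FPKM at 3 fragments, above its RiboMinus level, so a difference was not detectable at this depth.

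H2BC4 stood at 923 and 955 FPKM in the WT RiboMinus libraries, 6971, 6425 and 3669.7 in the WT NAD-Capture libraries and 1525, 3346 and 5179 in the DXO-KO-labelled libraries, with a log2 difference of 2.54 ± 0.33 between the WT groups (adjusted p = 0.00978). H2BC7 stood at 122 and 125 FPKM in RiboMinus and 1358, 1108 and 989 FPKM in WT NAD-Capture RNA, 9.33-fold higher, and had the smallest adjusted p of the histone rows that were higher (0.00231). H2BC11 was above H2BC5 in RiboMinus RNA, at 1436 and 1452 FPKM, but reached 3376, 3210.2 and 1828 FPKM in WT NAD-Capture RNA and did not pass (log2 difference 0.91 ± 0.32, adjusted p = 0.137; -1.32 with quantile normalization). H2BC6 had the largest fitted log2 difference among the higher calls (3.91, adjusted p = 0.012), at 0.713 and 0.42 FPKM against 18.5, 42.7 and 14.1 FPKM. Those values amount to about 2 and 1 fragments in the RiboMinus and 1, 2 and 1 in the WT NAD-Capture libraries, so no fold is given for it.

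For H3, which pairs with H4 in the nucleosome core, 1 of 10 tested rows passed, H3C2, and the class median was 0.53. H3C2 stood at 1453 and 1492 FPKM in the WT RiboMinus libraries, 13317, 19466 and 9850.0 in the WT NAD-Capture libraries and 3838, 9936 and 16069.6 in the DXO-KO-labelled libraries. It was the most abundant histone row in 5 of the 6 NAD-Capture libraries, H2BC5 being above it in WT replicate 1, and its WT groups differed by 3.21 ± 0.32 (adjusted p = 0.0053). H3C10 stood at 883 and 992 FPKM in the WT RiboMinus libraries, 1328, 1757 and 1373 in the WT NAD-Capture libraries and 807, 939 and 1170.2 in the DXO-KO-labelled libraries, and H3C1 at 394 and 399 FPKM in the WT RiboMinus libraries, 514, 631 and 442 in the WT NAD-Capture libraries and 199, 158 and 333 in the DXO-KO-labelled libraries. In both, all WT NAD-Capture libraries were above both RiboMinus libraries, but the differences of 0.65 and 0.40 did not pass (adjusted p = 0.0641 and 0.253) and became -1.08 and -0.72 with quantile normalization.

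Among H4 rows 4 of 10 tested passed higher and 1 lower, with a median of 1.30. H4C3 stood at 1981 and 1797 FPKM in the WT RiboMinus libraries, 7914, 8549 and 4762 in the WT NAD-Capture libraries and 2258, 3388 and 5383 in the DXO-KO-labelled libraries. H4C2 stood at 1371 and 1229 FPKM in the WT RiboMinus libraries, 7009, 6715 and 4722 in the WT NAD-Capture libraries and 824, 2289.8 and 4730.3 in the DXO-KO-labelled libraries. Both passed, at 1.86 ± 0.30 (adjusted p = 0.0175) and 2.22 ± 0.22 (adjusted p = 0.00508), and both turned with quantile normalization, to -0.64 and -0.03. H4C4 had groups that did not overlap either, at 1201 and 1141 FPKM against 4351, 6585 and 2477 FPKM, but did not pass (log2 difference 1.82 ± 0.46, adjusted p = 0.057; -0.33 with quantile normalization). H4C11 passed as lower, at 20.7 and 35.1 FPKM against 0 in all 3 WT NAD-Capture libraries, and 5.79, 34.3 and 0 FPKM in the DXO-KO-labelled libraries. A count of 0 allows 63.6 to 95.9 FPKM for H4C11, so this difference too was not detectable at this depth.

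H1 proteins bind the linker DNA between nucleosomes. None of 4 tested H1 rows passed higher, 1 passed lower, and the median log2 difference was 0.00. That median takes in H1-6 (-2.69), whose change was below the level that the NAD-Capture libraries could show. With H1-6 set aside, the middle H1 row is H1-4, at 0.61, above the H3 median of 0.53. H1-2 stood at 2149 and 2026 FPKM in the WT RiboMinus libraries, 3415, 4404 and 2716 in the WT NAD-Capture libraries and 1174, 2704 and 4211 in the DXO-KO-labelled libraries. H1-4 stood at 1781 and 2024 FPKM in the WT RiboMinus libraries, 2686, 4001 and 2261 in the WT NAD-Capture libraries and 1153, 1651 and 1848 in the DXO-KO-labelled libraries. In both genes the WT NAD-Capture libraries were above the RiboMinus libraries without overlap, at 0.72 ± 0.23 (adjusted p = 0.111) and 0.61 ± 0.28 (adjusted p = 0.245), and with quantile normalization both passed in the other direction, at -1.75 and -1.69. H1-3 lay the other way, at 456 and 406 FPKM against 331, 284 and 241 FPKM, and did not pass (log2 difference -0.60 ± 0.19, adjusted p = 0.0966); with centring and with quantile normalization it passed as lower, at -1.07 and -1.66 (adjusted p = 0.0348 and 0.00367). The testis gene H1-6 passed as lower from 6.32 and 4.73 FPKM to 0 in all 6 NAD-Capture libraries, where a count of 0 in the WT libraries allows 23.0 to 34.6 FPKM. All 3 lower calls of this comparison were thus below the level that its NAD-Capture libraries could show. Without replicate 3 of the WT NAD-Capture libraries H1-2, H2BC11 and H4C4 passed as higher, at 0.89, 1.19 and 2.19, and without replicate 2 H3C10 did, at 0.53.

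**Figure D4:**
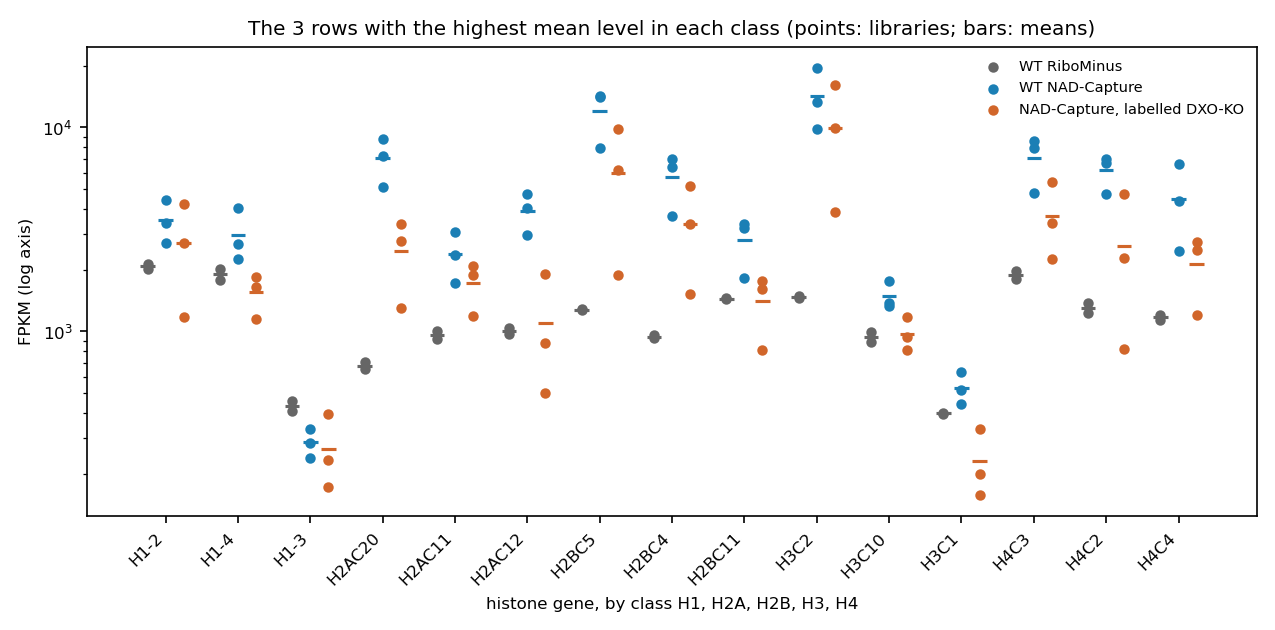
Points are FPKM (vertical log axis) in single libraries for the 3 rows with the highest mean level in each class (horizontal axis), and bars are group means. H2AC20, H2BC5 and H3C2 show the widest gap between WT RiboMinus and WT NAD-Capture RNA, and in H4C3 and H4C2 the DXO-KO-labelled libraries overlap with the WT NAD-Capture libraries.

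No histone row passed limma's test between NAD-Capture RNA of the DXO-KO-labelled libraries and WT NAD-Capture RNA. Over all 25004 transcripts tested 0.0320% passed. Of the 59 histone rows tested, 51 had a log2 difference below 0 and 8 above, where 51.9% of all transcripts were below. At an unadjusted p under 0.05 there were 11 histone rows, 10 of them lower, against 9.17% of all transcripts and 5.55% lower. The groups did not overlap for 15 rows with the DXO-KO-labelled libraries lower (8.53% of all transcripts tested) and for 1 with them higher (7.57%). The histone median was -0.83 and that of all transcripts -0.06. The lengths used next are those of the GENCODE transcripts, which can be too short or too long for histone rows. For transcripts of up to 400 bases the median was -1.02 over 18 histone rows and 0.89 over 282 other transcripts. For those of over 400 and up to 600 bases it was -0.88 over 21 histone rows and -0.68 over 586 others. The class medians ran from -0.54 for H1 to -1.03 for H2B.

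The rows nearest to the threshold, H3C14 and H2BC8, were low in fragments in the DXO-KO-labelled libraries. H3C14 was at 0 in all 3 WT NAD-Capture libraries and at 13.8, 40.6 and 41.5 FPKM, about 4, 2 and 1 fragments, in the DXO-KO-labelled libraries (adjusted p = 0.0907), and its identical copy H3C15 was at 0 in all 6. H2BC8 stood at 287, 103 and 177 FPKM in WT NAD-Capture RNA and at 12.4, 0 and 0 FPKM in the DXO-KO-labelled libraries, with no overlap (fitted log2 difference -6.20 ± 1.04, adjusted p = 0.139). H2AC4, an abundant row, did not pass either: its values given above do not overlap, with a difference of -1.96 ± 0.41 (adjusted p = 0.215). H2AC12 had a difference of -2.02 ± 0.58 and H2AC20 one of -1.58 ± 0.56, both without overlap and with adjusted p = 0.35 and 0.464; with quantile normalization both passed, at -2.73 and -2.51 (limma, adjusted p = 0.0313 and 0.0369). The fit of all 8 libraries called H3C14 higher (4.89, adjusted p = 0.0279). H2BC5 and H3C2 had overlapping groups, at -1.26 ± 0.76 and -0.69 ± 0.76.

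Replicate 1 of the DXO-KO-labelled libraries was the lowest of its group in the 3 most abundant rows of each class except H3C1, and was also the deepest NAD-Capture library, at about 807887 fragments' worth against 138401 and 80729. H2BC5, for example, was at 1895, 6160.2 and 9825 FPKM and H3C2 at 3838, 9936 and 16069.6 FPKM in replicates 1, 2 and 3. Without that library the histone median in this comparison was -0.58 and 1 row passed, lower, beside 15 of all 24333 transcripts tested. The part of that library's depth in the differences was not tested.

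Against WT RiboMinus RNA the DXO-KO-labelled libraries gave fewer calls than the WT NAD-Capture libraries did. This comparison and the first share the RiboMinus libraries. Of 22429 transcripts tested 14.0% passed, and of 56 tested histone rows 6 passed, 3 higher and 3 lower (background 4.41% higher and 9.63% lower). At an unadjusted p under 0.05 there were 16 histone rows, against 23.9% of all transcripts. The groups did not overlap for 19 rows with the DXO-KO-labelled libraries higher (17.0% of all transcripts tested) and for 12 with them lower (23.1%). By adjusted p the histone share called was thus below that of all transcripts, and by groups that did not overlap, with the DXO-KO-labelled libraries higher, it was above. The median was 0.75 against 0.13 for all transcripts. By GENCODE transcript length, with the same limit, the median up to 400 bases was 0.89 over 17 histone rows and 1.90 over 250 others. For over 400 and up to 600 bases it was 0.77 over 20 and 0.96 over 397. Quantile normalization gave 29 histone calls, 5 higher and 24 lower, and a histone median of -1.13. Of all 22429 transcripts 827 passed higher and 1473 lower with it. Without replicate 1 of the DXO-KO-labelled libraries 27 rows passed, 19 higher and 8 lower, while 6530 of all 21535 transcripts tested passed. Without replicate 2 there were 2 rows, beside 2276 of 21667 transcripts, and without replicate 3 there were 14, beside 3976 of 21677. Leaving out WT RiboMinus replicate 1 or 2 gave histone medians of 0.75 and 0.81, against 0.23 and 0.24 over all transcripts.

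The higher calls were H2AC25, H2AC21 and H3C14. H2AC25, a HIST3 gene, stood at 66.7 and 124 FPKM in the WT RiboMinus libraries, 719.9, 936 and 688 in the WT NAD-Capture libraries and 365, 544 and 689 in the DXO-KO-labelled libraries, and differed by 2.49 ± 0.44 (adjusted p = 0.0326). H2AC21, a HIST2 gene, stood at 148 and 142 FPKM in the WT RiboMinus libraries, 514, 470.2 and 580.4 in the WT NAD-Capture libraries and 401, 508 and 724 in the DXO-KO-labelled libraries, and differed by 1.86 ± 0.32 (adjusted p = 0.0308). In both genes all 6 NAD-Capture libraries were above both RiboMinus libraries. H3C14 (fitted 4.71, adjusted p = 0.0169) rests on the few fragments given above. Of the lower calls, H2BC26, also in HIST3, stood at 419 and 435 FPKM in RiboMinus RNA, 420.2, 343 and 399.7 in WT NAD-Capture RNA and 141, 191 and 153 in the DXO-KO-labelled libraries, with 29, 7 and 3 estimated fragments in the latter (log2 difference -1.41 ± 0.22, adjusted p = 0.0244). H1-6 and H3C4 were lower by the test (adjusted p = 0.0146 and 0.0213) from 6.32 and 4.73 and 2.86 and 4.09 FPKM to 0, levels below what a count of 0 allows in all 3 of those libraries.

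Summed over the 75 rows, histone FPKM came to 27788 and 28085 in the WT RiboMinus libraries, 106214, 123931 and 72533 in the WT NAD-Capture libraries and 27413, 56506 and 81709 in the DXO-KO-labelled libraries. Both WT groups were apart, and the third group spanned from below the RiboMinus libraries to within the WT NAD-Capture range. The ratio of mean sums between WT NAD-Capture and RiboMinus RNA was 3.61 over all classes, 1.53 for H1, 4.32 for H2A, 4.22 for H2B, 5.09 for H3 and 3.07 for H4. The H3 ratio rests largely on H3C2, which held most of the H3 sum in the NAD-Capture libraries. Between the DXO-KO-labelled libraries and WT NAD-Capture RNA the ratio over all classes was 0.547. As a share of the summed FPKM of all rows, histones made up 5.13% and 5.15% in RiboMinus RNA, 6.68%, 5.88% and 6.31% in WT NAD-Capture RNA and 2.15%, 0.660% and 1.18% in the DXO-KO-labelled libraries. That total ran from 541482 to 544947 FPKM in the RiboMinus libraries and from 1148707 to 8558867 FPKM in the NAD-Capture libraries, so shares and summed values rank the third group differently.

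The share of H1 rows in the histone sum was lower in all 6 NAD-Capture libraries than in both RiboMinus libraries, and that of H3 rows was higher. H1 rows gave 15.8% ± 0.0548 (SD, n = 2) of the histone sum in RiboMinus RNA, 6.75% ± 0.611 (SD, n = 3) in WT NAD-Capture RNA and 8.38% ± 0.648 (SD, n = 3) in the DXO-KO-labelled libraries. H3 rows gave 11.9% ± 0.376, 16.7% ± 1.84 and 20.6% ± 1.67 in the same order. The higher H3 share rests on 1 row, H3C2. It gave 44.9% and 43.6% of the H3 sum in the RiboMinus libraries and 80.5% to 85.1% in the WT NAD-Capture libraries. In the DXO-KO-labelled libraries it gave 73.0% to 87.7%. Of the histone sum, H2A gave 19.8%, 23.8% and 20.8%, H2B 25.9%, 30.2% and 27.8%, and H4 26.6%, 22.6% and 22.4%. These shares are sums over chosen rows and were not tested.

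**Figure D5:**
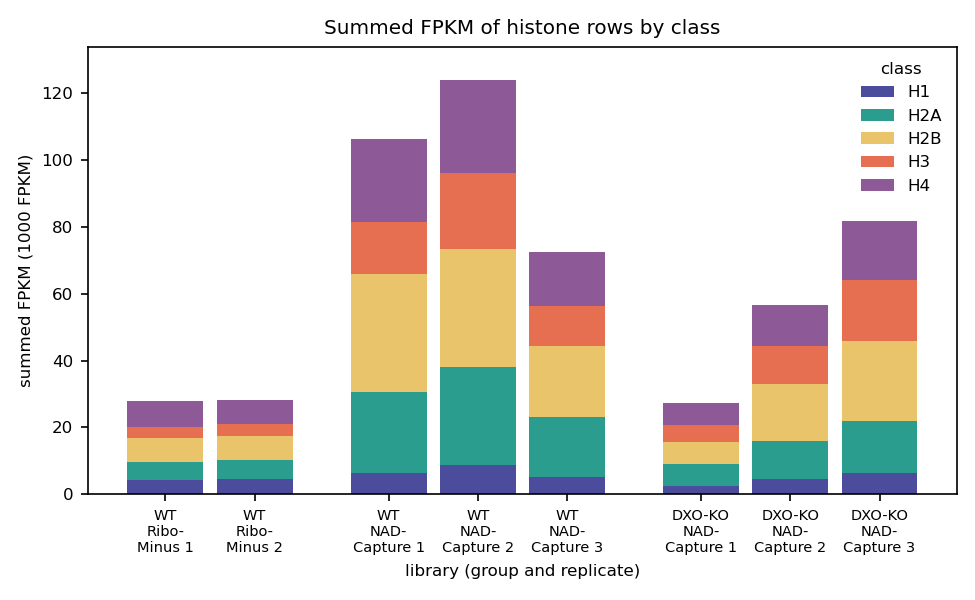
Bars give the summed FPKM of the histone rows in each library (vertical axis, in units of 1000 FPKM, from 0; horizontal axis, group and replicate), stacked by class. The sums are 27788 and 28085 in WT RiboMinus RNA, 72533 to 123931 in WT NAD-Capture RNA and 27413 to 81709 in the DXO-KO-labelled libraries.

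Histone rows whose gene starts with A did not have the highest median difference between WT NAD-Capture and RiboMinus RNA. The median log2 difference was 1.22 over 29 tested rows whose gene starts with A, 1.57 over 14 that start with G and 2.13 over 7 that start with C or T. Passing higher were 13, 7 and 4 of these rows, and lower 2, 1 and 0, beside 12.6% higher and 13.1% lower of all transcripts tested. The lower calls are those described above as not detectable at this depth. With TATAAA before the start the median was 1.46 over 28 rows and without it 1.39 over 22. The differences between these groups of rows were not tested, and the annotated start need not be the base used in these cells.

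More rows passed lower than higher in the lists for histone mRNA processing and for DNA replication, and as many lower as higher among histone chaperones. Of the list for histone mRNA transcription and 3-prime processing, 34 rows of 19 genes were tested between WT NAD-Capture and RiboMinus RNA; 2 passed higher and 10 lower (12.6% and 13.1% over all transcripts tested), with a median of -1.38. By size the first 4 were CDK2 (NM_001798), a kinase of the S phase entry pathway, SRRT (NM_001128853), CDK2 (NM_052827) and SLBP (NM_001306075), the last at 18.3 and 7.53 FPKM in RiboMinus RNA and 0 in all 3 WT NAD-Capture libraries. The main SLBP row (NM_006527) stood at 33.4 and 45.4 FPKM in RiboMinus RNA, 30.6, 42.8 and 37.5 FPKM in WT NAD-Capture RNA and 61.7, 64.0 and 85.7 FPKM in the DXO-KO-labelled libraries, and passed in no comparison. Most of these lower rows are 1 of several transcripts of a gene: the CDK2 rows summed to 66.6 and 63.9 FPKM in RiboMinus RNA and 35.0, 25.1 and 39.6 FPKM in WT NAD-Capture RNA.

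Of the S-phase DNA replication list, 26 rows of 20 genes were tested, of which 0 passed higher and 6 lower, beside the same 12.6% and 13.1%, with a median of -0.84. The helicase subunit MCM7 (NM_005916) stood at 194 and 196 FPKM in RiboMinus RNA and 62.7, 34.9 and 29.7 FPKM in WT NAD-Capture RNA, and MCM3 and MCM5 passed lower as well (-1.36 and -1.61). The row with the largest difference was the minor PCNA transcript NM_002592 (-3.28), whereas PCNA, the sliding clamp of DNA polymerase, summed over its rows to 211 and 211 FPKM in RiboMinus RNA and 513, 286 and 344 FPKM in WT NAD-Capture RNA. Among 20 tested rows for histone chaperones and supply, 2 passed higher, NPM1 (NM_002520) and NASP (NM_002482), and 2 lower, DAXX (NM_001141969) and CHAF1B. The median was -0.69. These shares of 2 in 20 are near or under those of all transcripts and are not a result about the list. Summed over its rows NPM1 was lower, at 703 and 642 FPKM in RiboMinus RNA and 446, 487 and 299 FPKM in WT NAD-Capture RNA. The summed values of NASP, 88.4 and 91.4 against 125, 73.1 and 85.2 FPKM, overlapped. Those of DAXX, 35.3 and 33.1 against 23.7, 36.4 and 10.3 FPKM, overlapped too.

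The list named replication-independent histone variants, which also holds H2AX, had 16 tested rows and a median of -0.94. Of these rows 3 passed higher and 4 lower, beside 12.6% and 13.1% of all transcripts. By size the first 4 were the MACROH2A1 rows NM_138610 and NM_001040158, both lower, and the CENPA rows NM_001809, lower, and NM_001042426, higher. CENPA is the variant found at centromeres. Summed over its rows CENPA stood at 15.5 and 18.7 FPKM in RiboMinus RNA and 8.85, 10.3 and 10.3 FPKM in WT NAD-Capture RNA. MACROH2A1 summed to 132 and 122 against 18.4, 21.0 and 38.0 FPKM. In the comparison of the DXO-KO-labelled libraries with WT NAD-Capture RNA no row of any of these 4 lists passed, with medians of 0.65, 0.14, 0.24 and 0.60 in the order above, where the histone rows had -0.83. Against RiboMinus RNA the same libraries gave 0 higher and 5 lower calls in the processing list, 0 and 4 in the replication list, 0 and 1 among chaperones, and 2 and 2 among variants, of 34, 26, 21 and 17 tested rows, where 4.41% of all transcripts passed higher and 9.63% lower. One variant that passed higher there was H2AX, the variant phosphorylated at DNA breaks, which stood at 47.0 and 60.2 FPKM in RiboMinus RNA, 155, 158 and 111 FPKM in WT NAD-Capture RNA and 150.3, 220.1 and 242 FPKM in the DXO-KO-labelled libraries. H2AX passed as higher in WT NAD-Capture RNA too (log2 difference 1.38, adjusted p = 0.0228).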

How the data were processed

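RNA of HEK293T cells was measured in 8 libraries. The authors deposited 1 table of FPKM values per RefSeq transcript and library, and the submitters' processing notes name TopHat2 2.1.1, Bowtie2 2.2.8.0, Cuffdiff and the hg19 build; the strand setting and the treatment of reads with several placements are not given in the sources used here. Symbols were matched through RefSeq (GRCh38.p14) and GENCODE release 29 for 99.1% of rows. Each comparison was fitted with limma 3.58.1 in R 4.3.3 (eBayes with trend) on log2(FPKM + 1), using only the libraries of the 2 groups and transcripts with a mean of at least 1 FPKM, with Benjamini-Hochberg adjustment over all transcripts tested. A fold change on this scale understates the change of low rows. The script was tested on simulated data with log2 changes of 3 and 6. Changes of 6 were added after changes of 3 alone gave no calls between WT NAD-Capture and RiboMinus RNA; with both sizes most changes of 3 were still missed there and most of 6 were found, so a row that did not pass is not shown to be unchanged. The members and lists were chosen with earlier results of these data known. Rows named in the text are the 3 with the highest mean level in each class, up to 5 calls in each direction per comparison, up to 4 calls per gene list, SLBP and DXO; other rows were named after their values were seen, and the values for other transcripts of like length and the fragment limits of called rows were added after seeing the data. Depth per library was estimated from the steps between low FPKM values of single-transcript genes of 1500 to 6000 bases, taking the effective length as the length minus 200 bases; limits for a value of 0 are 3 fragments per library and cover counting error only. Alternatives tried were another pseudocount (0.1), no filter or a minimum mean of 10 FPKM, centring, quantile normalization, a fit of all 8 libraries, FPKM summed per gene symbol (given for each symbol's most abundant row), a replicate block and leaving out each library. Python 3.11.15, pandas 2.3.3, numpy 2.4.6 and scipy 1.17.1 were used. Some results were left out and are not reported here.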

Additional observations from a re-analysis of the deposited data

How the results depend on the processing

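Between WT NAD-Capture and WT RiboMinus RNA, the 26 higher and 3 lower histone calls became 16 and 17 with quantile normalization. Quantile normalization forces all libraries to share the same distribution. Of all 24777 transcripts 2603 passed higher and 3311 lower with it. With centring the histone calls became 16 and 4, beside 2231 and 4000 of all transcripts. The histone median was 0.88 with centring and 0.28 with quantile normalization. Centring moved the median of all transcripts from 0.24 to -0.23 in this comparison, from -0.06 to 0.39 between the NAD-Capture groups and from 0.13 to -0.06 in the last. Quantile normalization reversed H1-2 (-1.75), H1-4 (-1.69), H2AC11 (-0.66), H2AC12 (-0.15), H2BC11 (-1.32), H3C10 (-1.08), H3C1 (-0.72), H4C3 (-0.64), H4C2 (-0.027) and H4C4 (-0.33), and centring reversed H3C1 (-0.066). A fit of all 8 libraries gave 13 histone calls. Leaving out a library gave 6 to 33 calls and a median of 1.32 to 1.65; the lowest counts, 6 and 7, came without a RiboMinus library, where the lone sample is assumed to vary like the others.

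Between DXO-KO-labelled and WT NAD-Capture RNA the histone median was -0.38 with centring and -1.32 with quantile normalization. Quantile normalization gave 2 histone calls, the fit of all 8 libraries 2, and leaving out a library 0 to 1. Of all 25004 transcripts 10 passed with quantile normalization and 141 with the fit of all 8 libraries. H1-3 was 0.28 with centring and -0.50 to 0.10 with a library left out; H2AC21 was -0.35 with quantile normalization and -0.20 to 0.22 with a library left out; H2BC6 was -2.19 to 0.70.

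For DXO-KO-labelled against RiboMinus RNA the 6 histone calls became 11 without a filter (5320 of all 40046 tested) and 29 with quantile normalization (2300 of 22429). They became 2 with FPKM summed per gene symbol (508 of 15223) and 2 to 27 with a DXO-KO-labelled library left out. The median was -1.13 with quantile normalization, which also reversed H1-2 (-3.24), H2AC20 (-0.52), H2AC11 (-1.66), H2BC5 (-1.18), H2BC4 (-0.91), H3C2 (-1.08), H3C10 (-2.19), H4C3 (-2.56), H4C2 (-2.27) and H4C4 (-2.01). Centring reversed H1-2 (-0.0069) and H3C10 (-0.15). With a library left out H1-2 was -0.23 to 0.69, H3C10 -0.10 to 0.16, H2AC12 -0.61 to 0.36 and H2BC11 -0.33 to 0.23.

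As a share of each library's summed FPKM, the log2 ratio of the histone sums was 0.29 for WT NAD-Capture against RiboMinus RNA, -2.24 for DXO-KO-labelled against WT NAD-Capture RNA and -1.95 for DXO-KO-labelled against RiboMinus RNA. Same-numbered libraries did not deviate together (r from -0.03 to 0.01). This cannot show whether the numbers pair samples, because the deviations of 2 RiboMinus libraries mirror each other and the NAD-Capture libraries are shallow. With the replicate block 0 transcripts passed in each comparison, 0 of them histone rows, because the block leaves few residual degrees of freedom. H1-2 and H3C10 were -0.23 and -0.10 with the block in the last comparison. The causes of the other changes were not tested. Values of 1 to 3 fragments limit the rows near 0 in NAD-Capture RNA.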
